A study of Mus musculus with 6 samples.

Results

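Potassium channel genes were taken here as every row of the deposited gene table whose symbol begins with Kcn, which gave 69 of 13348 listed genes. The study compared the orbitofrontal cortex, a frontal region of the cerebral cortex, in 3 control libraries and 3 knockdown libraries. All came from C57BL/6 mice aged 12 weeks. The knockdown animals received an injection into this region of a lentivirus that carries a short hairpin RNA (shRNA) directed at the splice junction of circHomer1a. This is a circular RNA formed from exons of Homer1, which encodes a scaffold protein of excitatory synapses. The series title describes the controls as given a scrambled shRNA, and the share of cells that the virus reached is not stated in the labels. Total RNA was made into stranded libraries. Nothing in the labels says whether the 3 samples of a group were different animals. The p-values therefore cover the spread among these samples alone, and that spread may be technical.

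Potassium channels let potassium ions leave or enter a cell and so set its resting potential, the shape of its action potentials and its firing rate. Voltage-gated members (Kcna to Kcnd, Kcnf to Kcnh, Kcnq, Kcns and Kcnv) belong to channels that open on depolarisation. Of these, Kcnf, Kcng, Kcns and Kcnv encode silent subunits that form channels only together with other voltage-gated subunits. Calcium- or sodium-activated members (Kcnm, Kcnn, Kcnt) open when those ions enter. Inward rectifiers (Kcnj) and tandem-pore channels (Kcnk) act near rest, and Kcnab, Kcne, Kcnip and Kcnmb encode auxiliary subunits that have no pore. The pore is lined by a short loop, the selectivity filter, with a glycine, an aromatic residue and a glycine at its core.

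That core was read in the coding sequence of each gene in GENCODE M21 (mouse assembly GRCm38) as the in-frame codons GGNTANGGN or GGNTTNGGN on the coding strand of its longest listed transcript. It was present in 58 of 58 pore-type members with a listed transcript and in 0 of 9 auxiliary ones. Searched in the same way, the other listed genes held it in 18.2% (2391 of 13103), so the letters alone do not mark a channel. TTN codons also include leucine, and Kcna6 had a match of that kind in addition to the one shown. The windows below are shown because the loop is what the pore-type members share, and they belong to the highest member of their subfamilies. Capitals mark the 3 matched codons.
Kcna6, delayed rectifier, chr6:126738635-126738667, minus strand: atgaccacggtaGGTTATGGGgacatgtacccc
Kcnc4, fast delayed rectifier family, chr3:107447787-107447819, minus strand: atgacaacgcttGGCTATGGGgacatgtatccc
Kcnh3, ether-a-go-go family, chr15:99232923-99232955, plus strand: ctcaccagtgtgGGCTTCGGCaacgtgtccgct
The aromatic codon was TAT, tyrosine, in the windows of Kcna6 and Kcnc4. It was TTC, phenylalanine, in that of Kcnh3.

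Several facts of the libraries bear on the values. FPKM (fragments divided by the length of the gene or transcript and by the library's mapped total) allows levels of different genes to be compared per length. A gene was listed where its mean exceeded 0.5 FPKM in at least 1 group, and 4 of the 69 members had a mean at or under 0.5 in the other group (Kcna3, Kcnd3, Kcnh6 and Kcnmb2). The summed gene FPKM ran from 256047 in knockdown 1 to 285833 in control 2. Homer1 itself was at 12.1, 8.97 and 12.1 FPKM in the controls and at 7.44, 16.1 and 9.47 in the knockdown libraries, so the groups overlapped, and circHomer1a was not analysed here. Control 2 and control 3 stood apart in opposite directions for genes rich in the striatum. The summed level of 9 such markers was 883, 1449 and 377 FPKM in controls 1 to 3 and 600 to 847 in the knockdown libraries. Cortical markers were high in every library, among them Slc17a7, the vesicular glutamate transporter of cortical excitatory neurons, at 86.5 to 259 FPKM. Because the samples were bulk tissue, fewer cells of a type and less RNA per cell cannot be told apart.

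The level of Kcn RNA in the orbitofrontal cortex was carried by a minority of the family. Of the 69 genes, 22 had a mean over the 6 libraries of at least 10 FPKM, 39 lay between 1 and 10, and 8 were under 1. The 12 highest genes held 58.5% of the summed Kcn FPKM, and 9 genes held 50%. Auxiliary subunits stood high in that order: Kcnab2, Kcnip2, Kcnip3, Kcnmb4 and Kcnab1 were all among the 12.

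Kcnj4, an inward rectifier of forebrain neurons that holds the membrane near rest, was the highest Kcn gene. It was at 62.6, 82.4 and 54.0 FPKM in controls 1 to 3 and at 56.6, 57.3 and 67.3 in knockdown 1 to 3. Control 2 was the highest library and control 3 the lowest, with every knockdown value between them. Kcnj9, a subunit of the G protein-gated inward rectifiers, was at 29.3, 16.7 and 32.4 FPKM in the controls and at 26.9, 28.9 and 22.2 in the knockdown libraries. Here control 2 was the lowest. The partner subunits Kcnj3 and Kcnj6 had means of 3.45 and 0.874 FPKM, both well under Kcnj9 per length. Kcnj11, the pore of the ATP-sensitive channel, lay at 7.21 to 9.57 FPKM over the 6 libraries.

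Among the auxiliary subunits, Kcnab2, a cytoplasmic partner of the Kcna channels, lay between 45.5 and 55.0 FPKM in the 6 libraries and Kcnip3, a calcium-binding partner of Kcnd channels also known as calsenilin, between 39.3 and 43.1. Those are narrow ranges. Kcnip2, another such partner that is rich in the striatum, was at 45.7, 65.2 and 28.7 FPKM in the controls and at 33.7, 44.0 and 44.2 in the knockdown libraries. The 3 controls thus spanned more than the 3 knockdown libraries did. Kcnmb4, the neuronal beta subunit of the large-conductance calcium-activated (BK) channel, had a mean of 24.8 FPKM in both groups, with an SD of 7.36 in control and 1.46 in knockdown (n = 3 each). The pore subunit of that channel, Kcnma1, was lower per length, at 6.16 ± 3.45 FPKM (SD, n = 3) in control and 8.94 ± 1.17 in knockdown.

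Of the tandem-pore leak channels, Kcnk1 was the highest, at 41.6, 40.9 and 44.6 FPKM in the controls and 38.2, 49.5 and 45.6 in the knockdown libraries. Next came Kcnk2, which is sensitive to stretch and lipids, with 19.3, 27.6 and 14.99 FPKM in the controls and 12.9, 17.6 and 21.8 in the knockdown libraries. The groups overlapped in both genes. Kcnk3 and Kcnk9, acid-sensitive channels, lay lower, at 4.18 to 7.79 and 0.380 to 2.99 FPKM.

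The highest voltage-gated gene was Kcnh3, a forebrain-rich member of the ether-a-go-go family, at 38.3, 42.8 and 40.4 FPKM in the controls and 33.6, 38.3 and 40.2 in the knockdown libraries. Kcnf1 and Kcnv1, which encode silent subunits that form channels only together with other voltage-gated subunits, had means of 19.8 and 13.0 FPKM. Kcnd2, which carries the dendritic A-type current, had a mean of 12.8 FPKM. The 4 Kcnc genes, fast channels that let neurons fire at high rates, had means of 3.40 to 12.5 FPKM. Kcnt1, the sodium-activated channel Slack, had a mean of 22.9 FPKM.

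In the order of mean levels, the ranges of adjacent genes among the first 25 overlapped at every step except one, between Kcnh3 at 33.6 to 42.8 FPKM and Kcnj9 at 16.7 to 32.4. At the low end, 8 genes did not reach the mean of 1 FPKM needed for a test: Kcna3, Kcng4, Kcnh5, Kcnh6, Kcnj6, Kcnk6, Kcnk10 and Kcnmb2. Kcnu1, a channel known for its role in sperm, was at 1.20 to 1.46 FPKM. In addition, 3 genes of the family overlap another listed gene on the opposite strand. They are Kcnab2 with Nphp4 over 1166 bases, Kcnh7 with Gca over 696 bases and Kcnip4 with 5730480H06Rik over 24793 bases. The library kit kept strand, but the setting used in counting is not given in the sources used here, so the values of these 3 are uncertain.

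**Figure D1:**
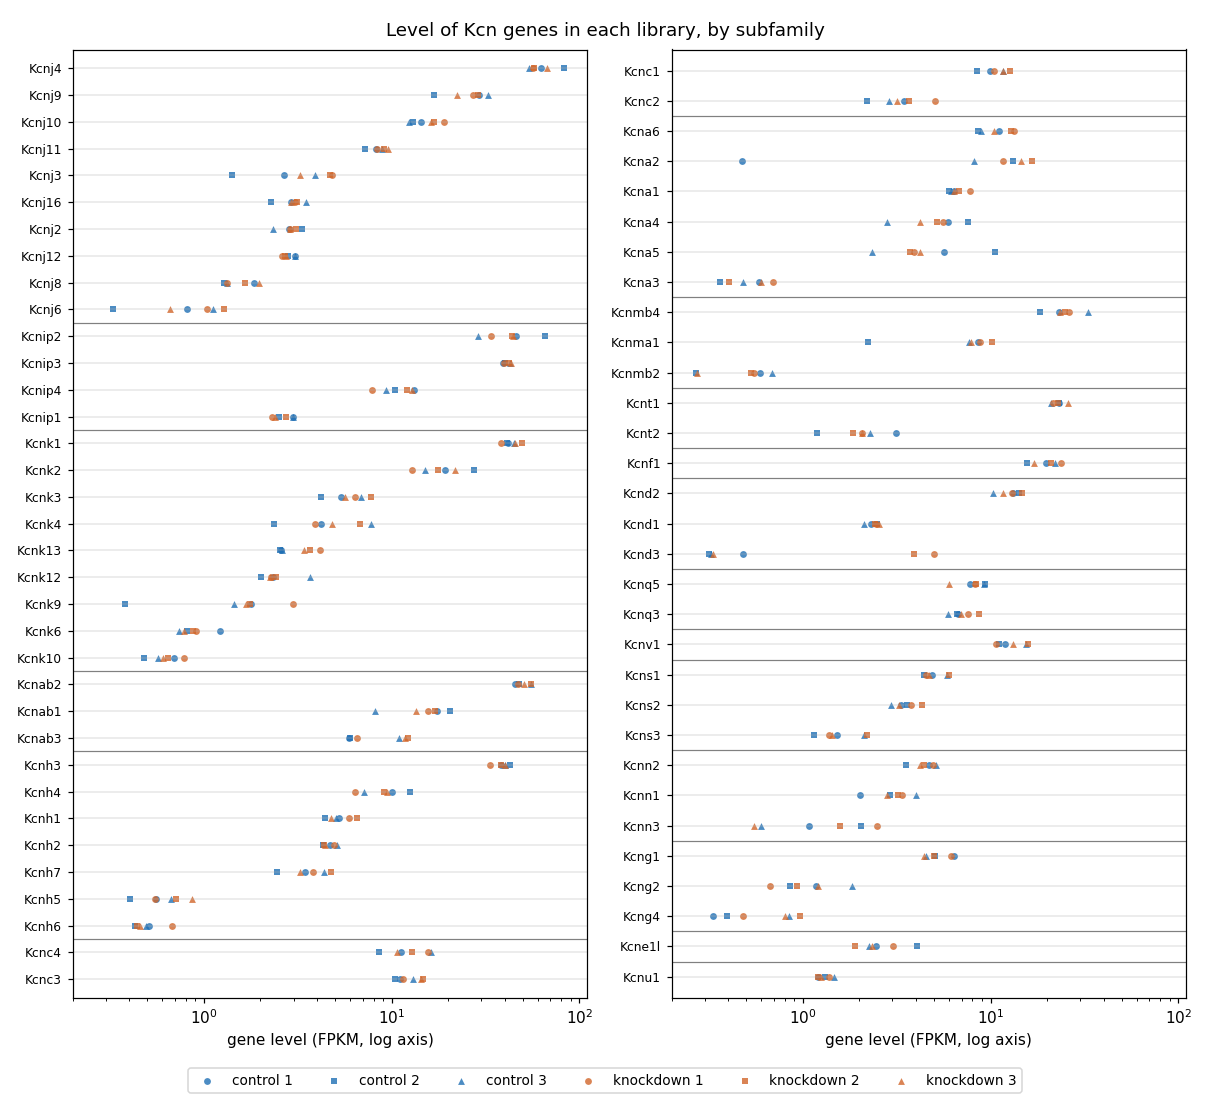
Level of the Kcn genes described here in the 6 libraries (x axis, FPKM, log axis), grouped by subfamily in order of summed level; blue marks controls, orange knockdown, and marker shape the replicate number. Kcnj4 stands highest at 54.0 to 82.4 FPKM, and Kcna2 and Kcnd3 have the widest spread between libraries.

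By subfamily, the inward rectifiers held the largest summed level, 127.9 FPKM on average over 10 listed members. The Kcnip subunits followed with 98.3 FPKM over 4 members, the tandem-pore channels with 82.2 over 9 and the Kcnab subunits with 74.3 over 3. The Kcnh, Kcnc and Kcna channels summed to 62.8, 39.2 and 39.0 FPKM. All listed Kcn genes together were at 678, 709 and 678 FPKM in the controls and at 674, 749 and 699 in the knockdown libraries. The means were 688 ± 17.9 (SD, n = 3) and 708 ± 38.1, a difference of 19.4 FPKM that lay within the spread of the libraries (exact permutation test, two-sided, p = 0.7, where 0.1 is the smallest p that 3 against 3 allows). Without knockdown 2, the highest library, the difference was -1.45 FPKM. Over the 20 sums tested, 19 subfamilies and the total, the exact permutation p ran from 0.3 to 0.9, and the Benjamini-Hochberg adjusted p from 0.889 to 0.9.

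**Figure D2:**
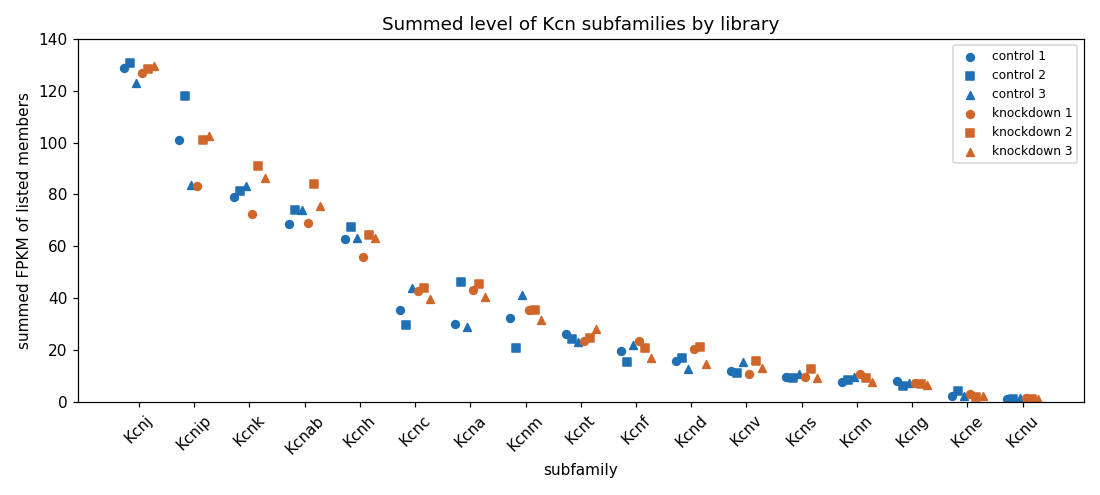
Summed FPKM of the listed members (y axis) of the Kcn subfamilies described here (x axis) in the 6 libraries; blue marks controls, orange knockdown, and marker shape the replicate number. The groups overlap in every subfamily shown, and Kcnj is highest at 123 to 131 FPKM.

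No Kcn gene passed the test between knockdown and control. In limma on log2(FPKM + 1), with p-values adjusted over all 11961 tested genes by the Benjamini-Hochberg method at 0.05, 0 of 61 tested Kcn genes were called, beside 0% of all tested genes, and the lowest adjusted p of a Kcn gene was 0.948. At an unadjusted p under 0.05, 4 of the 61 passed (6.56%), beside 3.57% of all tested genes. These were Kcnk13, Kcnj10, Kcnd3 and Kcna6, each higher in knockdown, but Kcnd3 was listed and tested only because of its high knockdown values and so had to differ in that direction. The log2 fold change, knockdown minus control, was positive in 41 Kcn genes and negative in 20, or 67.2% positive beside 55.7% of all tested genes, and its median was 0.07 beside 0.02. Without knockdown 2 the positive count was 34 of 61, and with 1 library left out the median ran from 0.03 without control 2 to 0.12 without control 3. The largest positive value was 1.39, for Kcna2. The 95% interval of a Kcn gene, which is not adjusted for the number of genes, reached a median of 0.37 to either side. A call after adjustment asked for more than an interval that leaves out 0. Kcnk13, at 0.41 with an interval of 0.18 to 0.64, was not called. The lack of calls therefore does not exclude changes of that size.

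In 4 of the 61 genes (6.56%) the groups did not overlap, beside 7.92% of all tested genes. Kcnj10, Kcnk13 and Kcnq3 had every knockdown library above every control, as did 4.45% of all tested genes, and Kcnj12 had every one below, as did 3.47%. The share of Kcn genes is thus near the background.

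**Figure D3:**
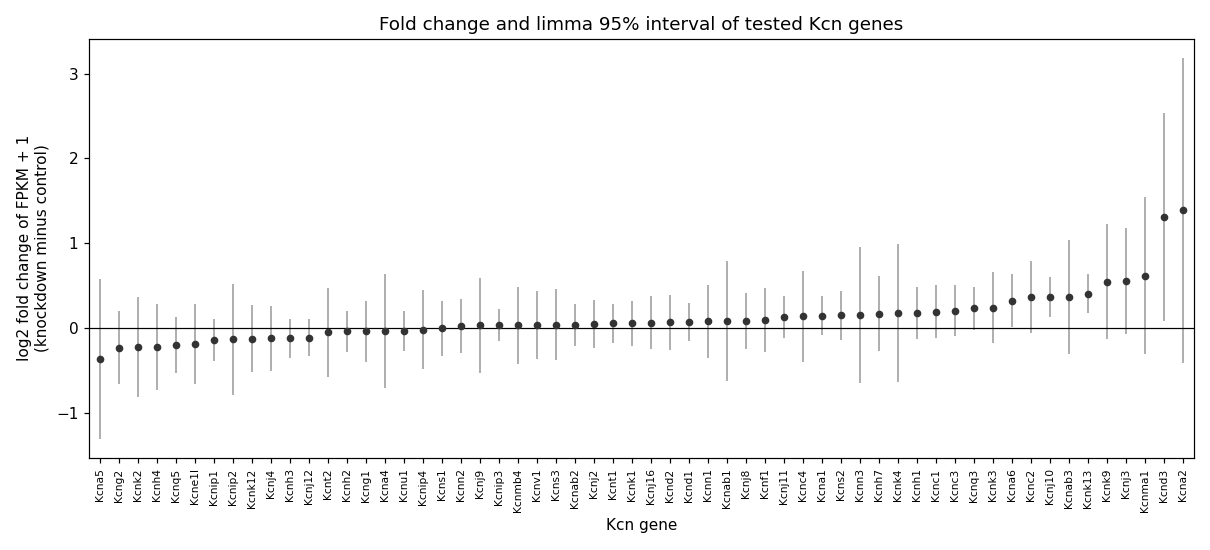
Log2 fold change of FPKM + 1, knockdown minus control (y axis), with its limma 95% interval for the tested Kcn genes described here (x axis), in order of size. The point estimates run up to 1.39 for Kcna2, and all but 4 of the intervals cross 0.

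The 2 Kcn genes with the smallest unadjusted p are known from glia. Kcnk13 encodes a tandem-pore channel known in microglia, where it holds the membrane potential. Its level was 2.56, 2.53 and 2.59 FPKM in the controls and 4.14, 3.65 and 3.43 in the knockdown libraries. The controls lay close together and every knockdown library was above them. The means were 2.56 ± 0.0306 FPKM (SD, n = 3) and 3.74 ± 0.362, and the difference was 0.41 on the log2 scale (95% interval 0.18 to 0.64, limma adjusted p = 0.948, exact permutation p = 0.1, the smallest possible). Microglial markers were given beside it as a list. Their summed level was 97.3 to 116 FPKM in control and 99.2 to 112 in knockdown, with 3 of 6 markers at a positive fold change. One of them, Cx3cr1, a chemokine receptor of microglia singled out after its values were seen, was at 2.90, 2.86 and 2.02 FPKM in the controls and at 8.82, 8.23 and 3.94 in the knockdown libraries. The other markers of the list rose less or did not rise. Aif1 was at 4.04, 5.49 and 7.67 FPKM in the controls and at 6.72, 7.06 and 8.68 in the knockdown libraries, and its groups overlapped. C1qa was at 54.6, 67.8 and 55.6 FPKM in the controls and at 48.3, 52.8 and 62.7 in the knockdown libraries. P2ry12 was at 11.2, 12.8 and 10.5 FPKM against 11.6, 12.7 and 11.5. The part of microglia in the Kcnk13 values was not tested.

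Kcnj10 encodes the inward rectifier with which astrocytes and oligodendrocytes take up potassium. It was at 14.3, 13.0 and 12.3 FPKM in the controls and at 19.1, 16.8 and 16.2 in the knockdown libraries. Again the groups did not overlap. The means were 13.2 ± 1.01 FPKM (SD, n = 3) and 17.4 ± 1.52, with a log2 fold change of 0.37 (95% interval 0.13 to 0.60, limma adjusted p = 0.948, exact permutation p = 0.1). Its usual partner in glia, Kcnj16, was at 2.91, 2.27 and 3.49 FPKM in the controls and at 3.07, 3.12 and 2.92 in the knockdown libraries, so those groups overlapped. Astrocyte markers summed to 248 to 275 FPKM in control and 233 to 278 in knockdown, with 3 of 6 at a positive fold change and a median log2 fold change of 0.07. Most of that sum was Aldoc, at 168 to 200 FPKM in control and 140 to 186 in knockdown, so the sum says little of the other markers. Oligodendrocyte markers summed to 878, 693 and 755 FPKM in the controls and to 1131, 821 and 942 in the knockdown libraries, with 6 of 6 positive and a median log2 fold change of 0.32. The oligodendrocyte sums overlapped between the groups, and their part in the Kcnj10 values was not tested. Kcnj9, which lies 11892 bases from Kcnj10 on chromosome 1 on the other strand, had a log2 fold change of 0.03.

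Kcnq3, one of the subunits of the M-current that damps repetitive firing, was at 6.66, 6.60 and 5.90 FPKM in the controls and at 7.54, 8.67 and 6.96 in the knockdown libraries. The lowest knockdown value lay just above the highest control, and the log2 fold change was 0.24 (95% interval -0.02 to 0.49). Kcnq5, another M-current gene of the cortex, was at 7.73, 9.33 and 9.20 FPKM in the controls and at 8.29, 8.37 and 6.03 in the knockdown libraries, a log2 fold change of -0.20. Without knockdown 3, its lowest library, that was -0.06.

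Kcna6, a delayed rectifier of axons, was at 11.1, 8.60 and 8.90 FPKM in the controls and at 13.4, 12.8 and 10.4 in the knockdown libraries. Knockdown 3 lay below control 1, so the groups overlapped. It differed by 0.33 on the log2 scale (95% interval 0.01 to 0.64, limma adjusted p = 0.948). The 1 listed transcript of this gene, Kcna6-204, was at 8.18, 5.59 and 0.229 FPKM in the controls and at 11.5, 10.8 and 6.37 in the knockdown libraries, for a log2 fold change of 1.29 with an interval of -0.64 to 3.22. Control 3 was near 0 for the transcript and not for the gene, so the size of the Kcna6 difference rests on which of the values is used. Kcna1, which lies 61945 bases away on chromosome 6 and encodes an axonal channel of the same kind, was at 6.03 to 6.42 FPKM in control and 6.40 to 7.79 in knockdown, with a log2 fold change of 0.15.

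On the negative side no gene had an unadjusted limma p as small as that of Kcnk13 or Kcnj10. Kcnj12, an inward rectifier related to Kcnj4, was at 3.05, 2.80 and 3.04 FPKM in the controls and at 2.59, 2.71 and 2.72 in the knockdown libraries. The groups did not overlap, but the gap between them was small and the log2 fold change was -0.11 (95% interval -0.32 to 0.11). Kcnh3 had a log2 fold change of -0.12 (-0.34 to 0.11), and without knockdown 1, its lowest library, that was -0.04. Kcnip1, a Kcnd partner known in interneurons, was at 2.501 to 2.97 FPKM in control and 2.31 to 2.72 in knockdown, a log2 fold change of -0.13. Kcng2, a silent subunit, was at 1.17, 0.854 and 1.82 FPKM in the controls and at 0.667, 0.927 and 1.20 in the knockdown libraries, and its ranges overlapped too. With means of 1.28 FPKM in control and 0.931 in knockdown, Kcng2 reached the mean needed for a test only through the controls. Its negative direction was thus fixed by the filter and is no support for a difference.

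Among channels known from fast-spiking interneurons, Kcnc1 was at 9.88, 8.47 and 11.7 FPKM in the controls and 10.5, 12.7 and 11.6 in the knockdown libraries. Kcnc2 was at 3.44, 2.20 and 2.88 FPKM against 5.07, 3.68 and 3.17, and Kcns3, a silent subunit, at 1.53, 1.14 and 2.10 against 1.38, 2.19 and 1.43. In each of the 3 genes the groups overlapped and control 2 was the lowest library. The 4 Kcnc genes all had positive fold changes, of 0.14 to 0.37. Interneuron markers summed to 619 to 712 FPKM in control and 506 to 641 in knockdown, and most of that sum was Sst, a marker of another interneuron class. Pvalb, the marker of fast-spiking cells, was at 39.8, 32.2 and 79.9 FPKM in the controls and at 37.5, 76.5 and 70.9 in the knockdown libraries, also lowest in control 2, and its part in the channel values was not tested. Kcnj8, a pore of the ATP-sensitive channel in mural cells of vessels, was at 1.28 to 1.84 FPKM in control and 1.33 to 1.95 in knockdown. Kcnj3, a G protein-gated rectifier, was at 2.68, 1.42 and 3.91 FPKM in the controls and at 4.82, 4.67 and 3.23 in the knockdown libraries, and its log2 fold change of 0.56 had an interval of -0.06 to 1.18. Without control 2 it was 0.29.

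A few genes switched between a low and a high level from one library to the next. Over the 6 libraries the highest value was at least 10 times the lowest in 2 of 61 Kcn genes (3.28%) and in 0.660% of all tested genes. The first was Kcna2, an axonal delayed rectifier, at 0.473, 13.2 and 8.14 FPKM in the controls and 11.6, 16.6 and 14.5 in the knockdown libraries. Control 1 alone was low. The log2 fold change of 1.39 had an interval of -0.41 to 3.18, and without control 1 it was 0.40. Its neighbour Kcna3, 63076 bases away, was under 1 FPKM in every library, at 0.584 in control 1.

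The second was Kcnd3, which carries an A-type current with Kcnd2. It was at 0.479, 0.315 and 0.323 FPKM in the controls and at 4.997, 3.88 and 0.331 in the knockdown libraries. Knockdown 1 and 2 were high, while knockdown 3 lay within the control range. Kcnd3 entered the deposited table and the test only through those knockdown libraries. The knockdown mean was higher by 1.31 on the log2 scale (95% interval 0.08 to 2.53, limma adjusted p = 0.948). Leaving out knockdown 3, the low knockdown library, raised the log2 fold change to 1.98 with an adjusted p of 0.0896 by limma. Leaving out knockdown 1 lowered it to 0.90. Because the gene was tested only through its high knockdown libraries, these values are no support for a difference. The related Kcnd2 and Kcnd1 were steady, at 10.3 to 14.8 and 2.12 to 2.55 FPKM over all libraries.

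Kcnma1 and Kcnk9 were low in control 2 alone. Kcnma1, the BK channel pore, was at 8.57, 2.21 and 7.69 FPKM in the controls and at 8.76, 10.2 and 7.87 in the knockdown libraries. Kcnk9 was at 1.78, 0.380 and 1.44 FPKM in the controls and 2.99, 1.76 and 1.67 in the knockdown libraries. Their log2 fold changes were 0.62 and 0.55 with all libraries, and 0.12 and 0.25 without control 2. The intervals with all libraries reached below 0 in both genes, to -0.31 and -0.12.

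Control 2 was the lowest library for much of the family. It was lowest in 29 of the 61 tested Kcn genes (47.5%), as compared with 31.8% of all tested genes, and highest in 12 (19.7%), as compared with 20.02%. Knockdown 2 was highest in 16 Kcn genes (26.2%), as compared with 13.3% of all. Controls 2 and 3 also formed opposite extremes. Control 2 was the highest and control 3 the lowest library in 7 Kcn genes (11.5%; all genes 5.30%), among them Kcna4, Kcna5, Kcnab1, Kcnip2, Kcnj2 and Kcnj4. The reverse held in 8 (13.1%; all genes 6.14%): Kcnc4, Kcnh2, Kcnj16, Kcnj9, Kcnk12, Kcnk4, Kcnmb4 and Kcnn2. These shares describe the libraries and were not tested.

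Among the first set, Kcna5, a delayed rectifier, was at 5.63, 10.5 and 2.33 FPKM in the controls and 3.91, 3.72 and 4.23 in the knockdown libraries. Kcna4, an A-type channel, was at 5.94, 7.57 and 2.81 FPKM against 5.59, 5.20 and 4.23. Kcnab1 was at 17.3, 20.4 and 8.18 FPKM against 15.5, 17.1 and 13.5. In these 3 genes the order of controls 2 and 3 was fixed by the choice of genes. Kcnh4, an ether-a-go-go channel rich in the striatum, was at 10.1, 12.5 and 7.13 FPKM in the controls and 6.37, 9.11 and 9.45 in the knockdown libraries. The striatal marker Drd2, a dopamine receptor, was at 47.6 FPKM in control 2 and 9.57 in control 3. Blood markers were also highest in control 2, summing to 1665 FPKM there and to 320 to 598 in the other libraries, and Ttr, a choroid plexus marker, was at 12.9 FPKM there and at 0.0735 to 2.01 elsewhere. Only 2 of the 6 choroid plexus markers were listed. The other one, Clic6, was at 2.27 FPKM in control 2, close to 2.07 in knockdown 3. The list of excitatory neuron markers went the other way: its score, the median over 6 markers of log2(FPKM + 1) minus the mean of the libraries, was lowest in control 2 (-0.61) and highest in control 3 (0.41). The part of any of these lists in the Kcn values was not tested. With control 2 left out, the log2 fold change of Kcnip2 was 0.15 in place of -0.13, and that of Kcnh4 was -0.04 in place of -0.22.

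**Figure D4:**
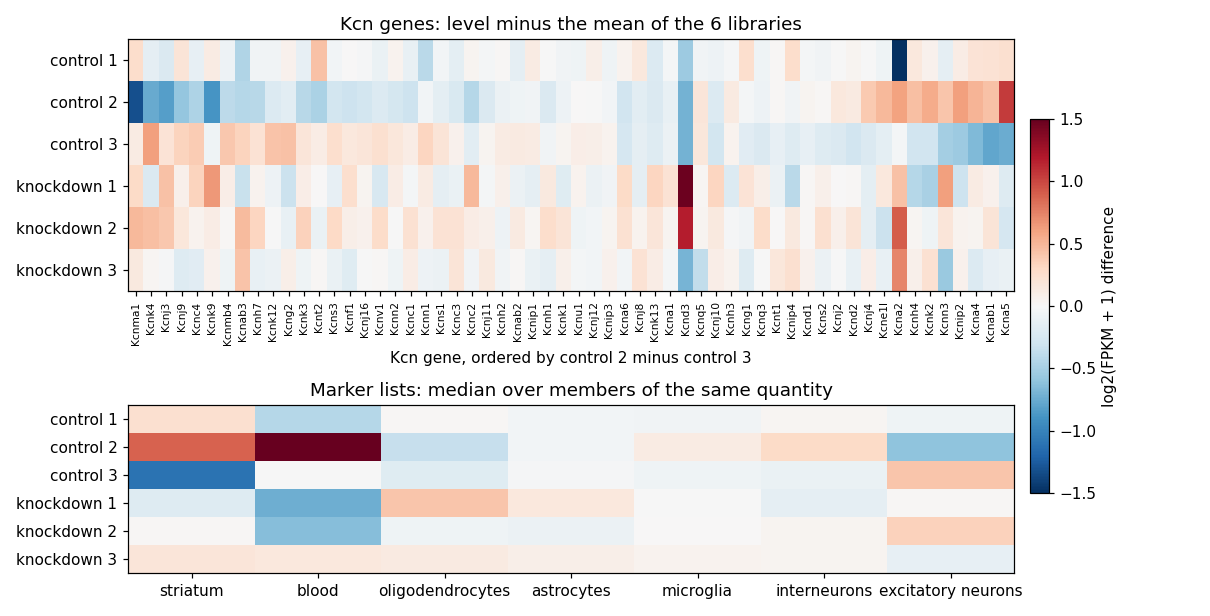
Colour gives log2(FPKM + 1) in each library (rows) minus the mean of the 6 libraries, for tested Kcn genes ordered by control 2 minus control 3 (upper panel) and, as the median over members, for 7 marker lists (lower panel); colours saturate at 1.5 to either side. Control 2 is the lowest library for Kcnma1 at the left and the highest for Kcna5 at the right, where control 3 is the lowest, and controls 2 and 3 are the highest and the lowest for the striatal list.

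At the level of transcripts, 117 Kcn transcripts were listed and 78 were tested. None of the 78 was called by limma (adjusted p of at least 0.950), beside 0.103% of all 18476 tested transcripts. At an unadjusted p under 0.05 there were 2 (2.56%), beside 3.81%, and the groups did not overlap in 4 (5.13%), beside 8.8%. Differences in transcript usage, the share of a gene's transcripts, were tested with diffSplice in 14 Kcn genes. The test called 0 of 14, beside 1.15% of all 4091 genes tested, and 2 of the 14 passed at an unadjusted p under 0.05, beside 11.1%.

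Kcnt2, a sodium-activated channel, had the smallest usage p (Simes adjusted p = 0.240 by diffSplice in limma). Kcnt2-202 was at 3.15, 0.937 and 2.05 FPKM in the controls and at 0, 0.120 and 1.60 in the knockdown libraries. Kcnt2-203 was at 0.835, 0.675 and 1.04 FPKM in the controls and at 3.39, 3.21 and 1.14 in the knockdown libraries. The first transcript led in the 3 controls and in knockdown 3, and the second led in knockdown 1 and 2. The log2 fold changes were -1.02 and 0.89 (limma adjusted p = 0.950 for both). The gene as a whole was at 3.12, 1.19 and 2.28 FPKM in the controls and 2.06, 1.85 and 2.07 in the knockdown libraries. Without knockdown 3, usage of Kcnt2 passed the threshold with an adjusted p of 0.0126. With any other single library left out it did not (0.0538 or more). Knockdown 3 was the knockdown library led by Kcnt2-202, as the controls were. Each transcript reached the mean of 1 FPKM needed for a test only through its higher group. The means were 2.05 in control and 0.574 in knockdown for Kcnt2-202, and 0.849 and 2.58 for Kcnt2-203. Opposite shifts were thus partly built in by the filter, and the pass is no support for them. The 2 coding sequences differ by 1 insertion of 72 bases, 24 codons, in Kcnt2-203. It is shown because it is the only coding difference between these transcripts, with the insert in capitals between 12 shared bases on either side.
Kcnt2-203 insert, chr1:140530753-140530824, plus strand: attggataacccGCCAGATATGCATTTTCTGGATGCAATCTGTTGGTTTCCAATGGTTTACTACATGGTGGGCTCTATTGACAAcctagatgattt

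Kcnd3 has 2 listed transcripts. Kcnd3-202 was at 0.195, 0.179 and 0.174 FPKM in the controls and at 5.97, 5.01 and 0.146 in the knockdown libraries. Kcnd3-201 was at 0.627, 0.581 and 0.539 FPKM in the controls and at 1.31, 0 and 0.323 in the knockdown libraries, with a mean too low for a test. The high gene values of knockdown 1 and 2 thus lay in Kcnd3-202, which lacks 57 bases of coding sequence, 19 codons, that Kcnd3-201 has. The insert is printed because it tells apart the transcript that varied from the one that did not reach the test, with the same marking.
Kcnd3-201 insert, chr3:105666962-105667018, plus strand: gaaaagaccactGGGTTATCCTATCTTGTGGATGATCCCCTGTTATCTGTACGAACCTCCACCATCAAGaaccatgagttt

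Kcnk1-202 was at 2.55, 4.13 and 3.04 FPKM in the controls and 1.351, 1.88 and 2.59 in the knockdown libraries. The dominant Kcnk1-201 was at 37.4 to 48.4 FPKM over all 6 libraries. The log2 fold change of Kcnk1-202 was -0.53 (95% interval -1.12 to 0.06), and the usage test gave an adjusted p of 0.405. The transcripts encode 328 and 336 codons with different ends, the last 60 coding bases of which are shown with the bases at genome positions not coding in the other transcript in capitals.
Kcnk1-201 end, chr8:126029689-126029748, plus strand: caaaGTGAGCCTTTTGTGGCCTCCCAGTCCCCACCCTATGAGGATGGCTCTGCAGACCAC
Kcnk1-202 end, which spans an exon junction: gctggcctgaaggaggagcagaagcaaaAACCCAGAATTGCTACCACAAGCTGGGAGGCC

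In Kcnj3 and Kcnc2 the listed transcripts differ in how much of the protein they encode. Kcnj3-201, with 501 codons, was at 2.495, 1.31 and 1.76 FPKM in the controls and 2.33, 1.72 and 1.91 in the knockdown libraries. Kcnj3-202, with 235 codons, was at 0, 0 and 2.75 FPKM in the controls and 3.18, 3.78 and 1.69 in the knockdown libraries. The longer transcript was steady and the shorter one was listed at 0 in 2 controls, and the usage test gave an adjusted p of 0.565. With a control mean of 0.918 FPKM, Kcnj3-202 reached the mean needed for a test only through the knockdown libraries. Kcnc2-201, with 642 codons, was at 0.211, 0.137 and 0.320 FPKM in the controls and at 6.45, 2.26 and 0 in the knockdown libraries. Kcnc2-203, annotated with 138 codons and an incomplete start, was at 4.63, 3.12 and 3.55 FPKM in the controls and at 0.0527, 2.59 and 4.51 in the knockdown libraries. Kcnc2-204, with 639 codons, was at 0.979, 0.416 and 1.06 FPKM against 1.02, 1.15 and 0.979. Of the 2 long forms, Kcnc2-201 was above 2 FPKM in knockdown 1 and 2 only, and Kcnc2-204 stayed near 1 FPKM or below. Kcnc2-201, with a control mean of 0.223 FPKM, entered the tests only through those 2 libraries and so had to differ in that direction. The adjusted p of usage by diffSplice was 0.516.

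Several changes of leading transcript crossed the groups. In 12 of the 27 Kcn genes with more than 1 listed transcript (44.4%), the transcript with the highest FPKM was not the same in all 6 libraries, as in 47.8% of all such genes. Kcnh1, a voltage-gated channel, is one. Kcnh1-201 was at 4.36, 1.11 and 3.74 FPKM in the controls and 2.91, 0.0339 and 3.66 in the knockdown libraries, and Kcnh1-202 at 0.945, 3.38 and 1.38 against 3.12, 6.67 and 1.13. Control 2, knockdown 1 and knockdown 2 were led by Kcnh1-202. The coding sequence of Kcnh1-201 holds 81 further bases, 27 codons, in capitals here.
Kcnh1-201 insert, chr1:192277091-192277171, plus strand: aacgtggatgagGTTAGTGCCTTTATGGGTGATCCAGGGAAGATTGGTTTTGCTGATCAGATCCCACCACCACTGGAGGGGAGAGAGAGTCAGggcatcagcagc

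Kcnk2 showed the same kind of change among transcripts that differ at their first codons. Kcnk2-206 was at 15.9, 28.5 and 17.1 FPKM in the controls and 12.9, 12.8 and 18.8 in the knockdown libraries. Kcnk2-201 was at 0.817, 20.2 and 6.07 FPKM in the controls and 0.0717, 17.1 and 1.72 in the knockdown libraries. Kcnk2-202 was at 14.2, 0.896 and 1.26 FPKM against 2.15, 0.0303 and 11.3. In control 2 and knockdown 2 the level of Kcnk2-201 was high and that of Kcnk2-202 low, and in control 1 and knockdown 3 it was the reverse. The usage test gave an adjusted p of 0.954. The first 96 coding bases are shown, each across exon junctions, with the bases that lie at genome positions not coding in the other transcript in capitals. The last 2 capitals, AG, are the same letters in both.
Kcnk2-206 start: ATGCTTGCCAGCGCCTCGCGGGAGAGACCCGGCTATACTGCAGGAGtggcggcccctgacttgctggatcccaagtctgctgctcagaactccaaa
Kcnk2-201 start: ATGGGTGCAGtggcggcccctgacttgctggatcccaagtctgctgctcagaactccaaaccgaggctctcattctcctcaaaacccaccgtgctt

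Kcnab2-202 ran from 0 to 25.7 FPKM, with control 2, knockdown 1 and knockdown 2 at 19.5, 25.7 and 24.01 and the other libraries at 1.19 or less. Kcnab2-201, which lacks 42 bases of the coding sequence of Kcnab2-202, was at 60.9 to 84.4 FPKM throughout. Kcna1-201 and Kcna1-202 have identical coding sequences, and their FPKM varied while the gene stayed between 6.03 and 7.79. Identical coding sequences were also found in the pairs Kcnk13-201 and Kcnk13-204, Kcns3-201 and Kcns3-203, Kcnk2-202 and Kcnk2-205, and Kcnab2-202 and Kcnab2-207. Fragments from the shared bases of such pairs can be assigned to either transcript. Values at least 10 times apart between libraries were found in 17 of the 78 tested Kcn transcripts (21.8%), beside 18.8% of all tested transcripts.

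**Figure D5:**
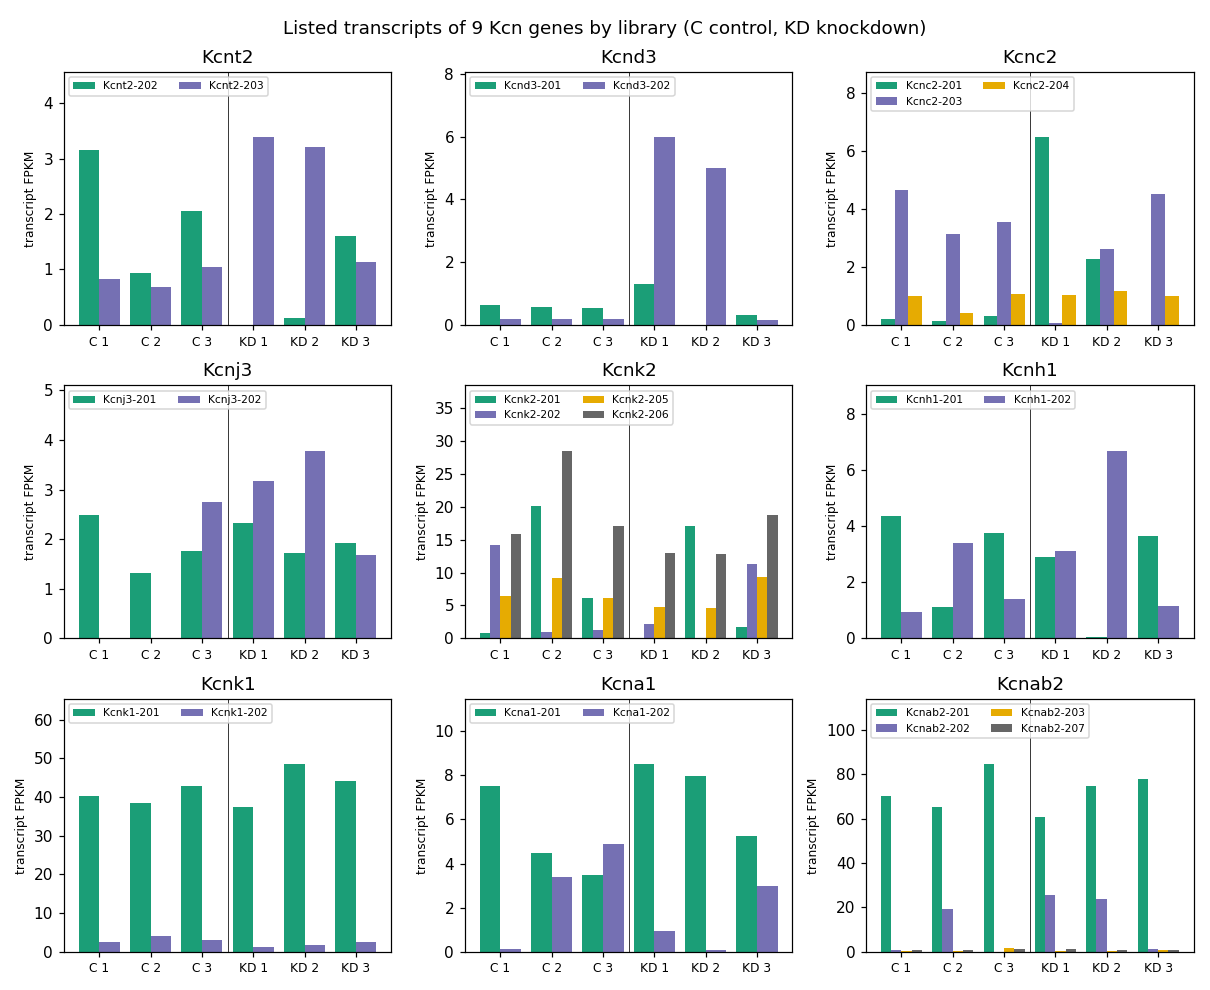
Transcript level (y axis, FPKM) in the 3 control (C) and 3 knockdown (KD) libraries (x axis) for the listed transcripts of 9 Kcn genes, 1 bar for each transcript. Kcnt2-203 leads in KD 1 and KD 2 and Kcnt2-202 in the other 4 libraries, and Kcnd3-202 is high in KD 1 and KD 2 alone.

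Genes whose products work beside these channels were taken from a list of 43 partner genes, which holds scaffolds, auxiliary proteins of other names, G protein subunits and cation channels of the same membranes. Of these, 40 were listed and 39 tested. None was called by limma, 25 had a positive and 14 a negative log2 fold change (64.1% positive, beside 55.7% of all tested genes), and the median was 0.07, beside 0.02. At an unadjusted p under 0.05 there were 2 (5.13%, beside 3.57%), both higher in knockdown. Cntn2, an adhesion protein that clusters Kcna channels beside the node of Ranvier, was at 20.1, 14.4 and 17.9 FPKM in the controls and 27.4, 22.7 and 23.02 in the knockdown libraries. Lrrc55, an auxiliary gamma subunit of the BK channel, was at 2.67, 2.62 and 2.86 FPKM in the controls and 3.45, 3.80 and 3.90 in the knockdown libraries. The groups did not overlap in either, and the log2 fold changes were 0.47 (95% interval 0.14 to 0.79) and 0.34 (0.12 to 0.57). In all, 6 of the 39 had groups that did not overlap (15.4%, beside 7.92% of all tested genes), each of them higher in knockdown, among them Abcc9, Cntn2, Gnao1, Lrrc55 and Vapb. Abcc9, with means of 0.906 FPKM in control and 1.17 in knockdown, reached the mean needed for a test only through the knockdown libraries. Its direction was thus fixed by the filter, and its place in that count is no support for a difference.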

How the data were processed

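RNA of 3 control and 3 knockdown samples was measured. The deposited tables hold FPKM values per gene and per transcript, as the file headers state. The submitters' processing notes list StringTie, HISAT2, cutadapt and FastQC and give no version. The build and annotation release of the tables are not given in the sources used here. All 69 members had an identifier in GENCODE M21, 62 of them with the same version and 63 with the same coordinates, and coding sequences were read from that release (7 of 117 transcripts were matched without their version). Coordinates were computed on GRCm38. Each table had 1 empty line, which was left out. Depth is unknown, so no counting interval or count test was used and precision rests on the replicates.

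Genes and transcripts averaging 1 FPKM or more across the libraries entered limma 3.58.1 (R 4.3.3) as log2(FPKM + 1), with an intensity trend, only the group as a term, and Benjamini-Hochberg adjustment over all 11961 genes or 18476 transcripts at 0.05. The added 1 makes fold changes of low genes smaller than they are. Usage was tested with diffSplice (Simes p), and sums with two-sided exact permutation tests. Scripts were tested on simulated data. Sequences and figures were made with Python 3.11.15 and matplotlib 3.10.9. Replicate numbers were not taken as pairs, since the deviations of same-numbered samples correlated at 0.184, -0.127 and -0.0708.

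The members and lists were chosen with earlier results of these data known. The text names the 12 highest members and the highest of each subfamily, by smallest p the first 6 in each direction, 8 transcripts and 4 genes for usage, members known from 1 cell type, and the 5 with the largest ratio between libraries. Other members are named to complete a count, a pair or a subfamily. Alternatives changed the filter, pseudocount, scaling, variance model, gene value and the libraries used, and added the replicate number as a block. Some members, a partner gene and some sequences are not reported here.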

Additional observations from a re-analysis of the deposited data

How the results depend on the processing

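No Kcn gene and no Kcn transcript was called by limma under any of the alternatives run. The lowest adjusted p of a Kcn gene in limma was 0.0896, for Kcnd3 without knockdown 3. Kcnd3 was tested only through its high values in knockdown 1 and 2, and the library left out was its low knockdown library. That p is therefore no support for a difference. Over all genes, 0 were called, against 1 with a common sum, 3 with array weights, 4 with the sum of listed transcripts and 0 to 3 with a library left out. Usage called 0 Kcn genes, against 0 to 1 with a library left out (Kcnt2, without knockdown 3). The library left out there was the knockdown library that resembled the controls, and the limit from the filter given for Kcnt2 applies. With the replicate number as a block, 0 Kcn genes, 0 Kcn transcripts and 0 Kcn usage genes were called, and 7 Kcn genes against 4 passed at an unadjusted p under 0.05. Over all transcripts the block gave 0 calls against 19. The summed Kcn difference of 19.4 FPKM ran from -1.45 to 35.9 with a library left out. A common sum moved the median log2 fold change of all genes from 0.02 to 0.07. The log2 fold change of Kcns3 was -0.000570 after quantile scaling, and with a library left out ran from -0.0923 to 0.18, that of Kcnj16 from -0.0528 to 0.18 and that of Kcnip2 from -0.43 to 0.15. Differences of sums turned sign in Kcng and Kcnu with a common sum (0.0202 and 0.0107 FPKM), in Kcnj with the median of ratios (-1.52 FPKM) and in Kcnh as a mean log2 level (0.0256). With a library left out they also turned in 12 subfamilies: Kcne ran from -0.839 to 0.0492, Kcnf from -0.316 to 3.13, Kcng from -0.676 to 0.119, Kcnip from -13.8 to 3.45, Kcnj from -1.43 to 2.53, Kcnk from -1.68 to 7.62, Kcnm from -2.57 to 7.61, Kcnn from -0.259 to 1.33, Kcns from -0.444 to 1.15, Kcnt from -0.466 to 1.73, Kcnu from -0.107 to 0.0215 and Kcnv from -0.894 to 1.72 FPKM. The cause of these changes was not tested, beyond the fewer samples of a fit without a library. The number of libraries and the unknown depth limit the precision.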
